A study of Mus musculus with 19 samples.

Results

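The subunits of the oxidative phosphorylation machinery were followed in CD11b+ cells of the mouse brain after systemic LPS, in PARK7/DJ-1 KO mice and their wildtype littermates. A gene counted as a subunit if GENCODE calls it protein-coding and its symbol is that of a mitochondrial mt-Nd, mt-Co, mt-Cytb or mt-Atp gene, or has the form of a subunit of complex I (Nduf followed by a, b, c, s or v and a digit), II (Sdha to Sdhd), III (Uqcr), IV (Cox4 to Cox8) or V (Atp5). This rule found 102 of the 56980 genes in the count table, 89 of them nuclear and 13 mitochondrial. The nuclear genes comprised 37 of complex I, 4 of complex II, 8 of complex III, 21 of complex IV and 19 of complex V. Ndufa4 and Ndufa4l2 carry complex I names but were counted with complex IV, where the protein is now placed. Some subunits fall outside the rule by their names, among them Cyc1 and Ndufab1, and were read with the pathway lists.

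The respiratory chain passes electrons from NADH (complex I) and succinate (complex II) over ubiquinone to complex III, from there by cytochrome c to complex IV and to oxygen. Complexes I, III and IV pump protons across the inner mitochondrial membrane, and complex V, the ATP synthase, uses the gradient to make ATP. The membrane cores of all but complex II are partly encoded in mitochondrial DNA and everything else in the nucleus. Microglia and macrophages activated by LPS are known for a turn from respiration towards glycolysis, and DJ-1 is a protein linked to mitochondrial function and early-onset Parkinson's disease.

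RNA was sequenced from 5 KO and 5 wildtype mice injected intraperitoneally with LPS from E. coli (4 µg/g body weight), and from 5 KO and 4 wildtype mice given saline vehicle (PBS, baseline). All 19 mice were males of 3 to 4 months, perfused 6 h after the injection. The KO line is a gene trap in Park7 that was backcrossed to C57BL/6NCrl, so all KO mice carry the same trap. Cells were enriched from whole brain with CD11b magnetic beads, not sorted by flow cytometry, and olfactory bulb and cerebellum were removed. Each library is 1 mouse.

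Library totals lay between 11936364 and 22788884 counts. Park7 had 9 to 90 counts in the KO libraries and 262 to 533 in the wildtype libraries. Microglial markers summed to between 24830 and 39840 CPM (counts scaled by library size) in the 9 PBS libraries and between 10640 and 17120 CPM in the 10 LPS libraries. After LPS 9 of 10 microglial markers tested were lower in each genotype. Neutrophil and monocyte markers together summed to 36.5 to 203 CPM with PBS and to 154 to 609 CPM with LPS, where all 3 monocyte markers rose in both genotypes, and 3 of 7 neutrophil markers rose in wildtype and 4 of 7 in KO. Markers of neurons, astrocytes, oligodendrocytes and vessels summed to 1209 to 16560 CPM with no order by group. They were highest within their groups in KO LPS replicate 1, KO PBS replicate 1, wildtype LPS replicate 2 and wildtype PBS replicate 2. KO LPS replicate 1 also stood apart in ribosomal RNA, with 0.907% of its counts in rRNA genes against 0.0254 to 0.342% elsewhere. In such mixed cells fewer cells of a type and less RNA per cell cannot be told apart, and the part of the microglial, neutrophil and monocyte markers in the LPS results was not tested. For the other brain cell markers, a fit with their level as a covariate and a fit without the 4 named libraries were made.

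Of the 102 subunit genes, 90 passed the low-count filter, 83 nuclear and 7 mitochondrial. The nuclear genes that did not pass were Ndufb11b, Cox5b-ps, Cox7a1, Cox7b2, Cox8c and 1 of the 2 rows of Atp5po. They include the muscle isoform Cox7a1 and the testis isoforms Cox7b2 and Cox8c of complex IV. The nuclear subunits took 0.246 to 0.362% of all counts per library, and the mitochondrial ones 0.167 to 0.407%.

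At baseline the levels of the nuclear subunits, as CPM per kb of the canonical transcript in wildtype PBS, had a median of 13.2 in complex I, 26.7 in complex II, 15.8 in complex III, 27.01 in complex IV and 26.9 in complex V. These levels depend on which transcript is taken as canonical. For Ndufb9, the lowest of complex I with 1.18 CPM per kb, it is 4197 bases long. The ATP synthase β subunit Atp5f1b, which holds the catalytic sites, was the highest nuclear subunit with 177 ± 30.2 (SD, n = 4) CPM per kb. It was followed by the α subunit Atp5f1a with 125 ± 10.8 CPM per kb. Cox8a, a small structural subunit of complex IV, reached 112 ± 48.7 CPM per kb, and Cox4i1 97.2 ± 16.4 CPM per kb. Of the tested isoforms of complex IV that muscle, lung, testis or hypoxic tissue is known to use, Cox6a2 stood at 1.32 ± 0.607 and Cox4i2 at 1.29 ± 0.576 CPM per kb. Their ubiquitous counterparts Cox6a1 and Cox4i1 stood at 59.97 ± 24.2 and 97.2 ± 16.4 CPM per kb, so that in these cells the ubiquitous isoform was higher by far in each pair.

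Only 7 of the 13 mitochondrial genes could be measured. mt-Co1, the catalytic subunit of complex IV, had 1064 ± 425 CPM per kb in wildtype PBS and, over all 19 libraries, a mean of 33060 counts per library. mt-Cytb, the cytochrome b of complex III, had 371 ± 136 CPM per kb, and mt-Nd1, a membrane subunit of complex I, had 166 ± 80.8 CPM per kb. In contrast, mt-Nd3, mt-Nd4l and mt-Atp8 had 0 counts in all 19 libraries. mt-Atp6 had at most 1 count, mt-Co2 at most 3 and mt-Co3 at most 7 counts in a library, where 3 counts correspond to 0.139 to 0.256 CPM. These genes are cut from the same long precursor as mt-Co1 and mt-Cytb.

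The 6 genes with at most 7 counts in a library are the ones whose sequence is not particular to mitochondrial DNA. Of the 75-base words in mt-Atp6, mt-Atp8, mt-Co2, mt-Co3 and mt-Nd4l, 100% also occur elsewhere in the GRCm39 genome, and 98.9% of those of mt-Nd3. The share was 61.5% for mt-Nd4, 39.8% for mt-Co1, 5.71% for mt-Nd2, 1.66% for mt-Nd5, and 0% for mt-Nd1, mt-Nd6 and mt-Cytb. The long shared stretch, which holds the 6 genes whole, is bases 6394 to 11042 of the mitochondrial chromosome, 4649 bases, which lie again on the minus strand of chromosome 1 at chr1:24650616-24655265. The copies differed at 1 aligned base, T9461C (mitochondrial base first, counted from the start of the mitochondrial chromosome, then the base of the copy), which lies in mt-Nd3, for an identity of 99.978%, and the copy has 1 base more where the 2 gapless alignments join. Both copies of the same 60 bases are printed here from GRCm39, for mt-Atp6 without a difference and for the start of mt-Nd3 with the differing base in capitals, on the strand of the genes.
mt-Atp6, chrM:8227-8286: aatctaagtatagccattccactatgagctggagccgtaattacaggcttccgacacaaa
mt-Atp6, copy at chr1:24653373-24653432: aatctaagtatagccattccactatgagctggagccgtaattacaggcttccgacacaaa
mt-Nd3, chrM:9459-9518: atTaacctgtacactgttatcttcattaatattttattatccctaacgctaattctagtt
mt-Nd3, copy at chr1:24652141-24652200: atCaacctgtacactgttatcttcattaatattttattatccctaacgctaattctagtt

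Of the words of mt-Co1, 405 are found in this copy and 220 on chromosome 2, and those of mt-Nd2 and mt-Nd5 lie in short stretches on chromosomes 2, 4 and 13. A read from the shared stretch fits both places, and how such reads were counted is not given in the sources used here. The 7 pseudogenes annotated in the chromosome 1 copy had between 4 and 123 counts summed over all 19 libraries. Of mt-Nd4, 876 of 1378 bases lie inside the stretch, and of mt-Co1 479 of 1545. The counts of the 6 genes were therefore not read as levels of their RNA, and mt-Nd4 and mt-Co1 are uncertain as levels per length.

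**Figure D1:**
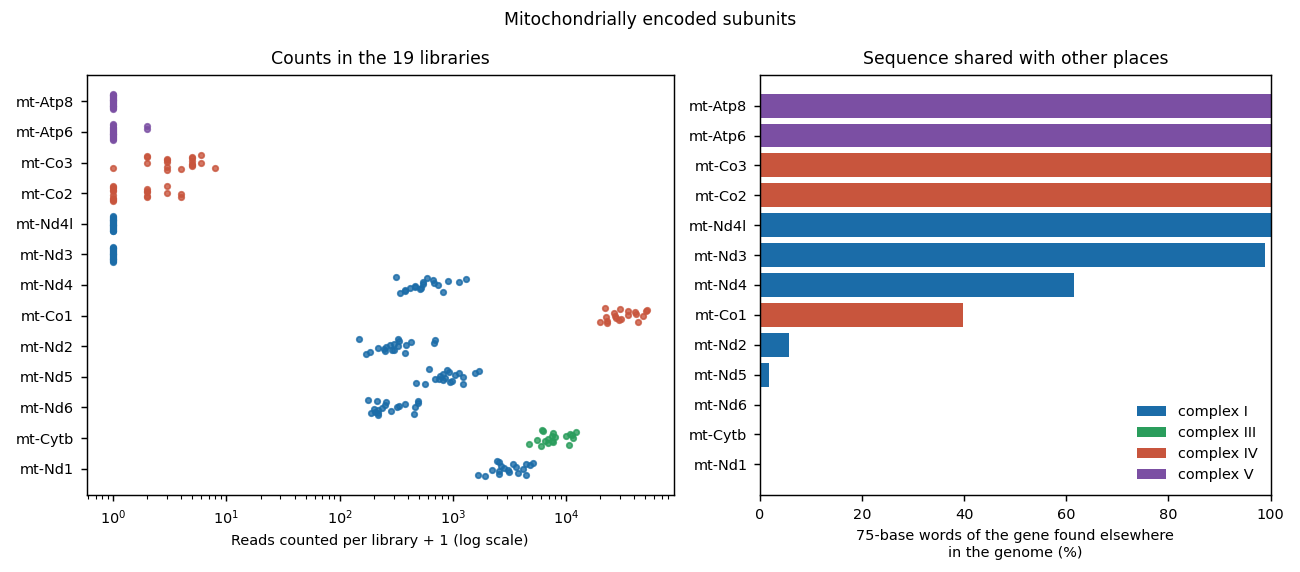
Reads counted for each mitochondrially encoded subunit in the 19 libraries (left, 1 added for the log axis, 1 point per library) and the share of the gene's 75-base words found elsewhere in the genome (right), coloured by complex. The 6 genes with 98.9% or more of their words elsewhere have 0 to 7 counts per library, and the other 7 genes have 146 or more.

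For the 7 measured mitochondrial genes no response to LPS was detected in either genotype. None passed edgeR's quasi-likelihood test at an adjusted p of 0.05 for LPS against PBS, where 22% of all 18739 genes tested rose and 19.7% fell in wildtype, and 24.2% rose and 21.9% fell in KO. None had an unadjusted p under 0.05 either, and DESeq2 called none. mt-Co1 stood at 1200, 2618, 1321 and 1440 CPM in wildtype PBS and at 1765, 2020, 1661, 1460 and 2295 CPM in wildtype LPS. In KO mice it stood at 2944, 1635, 2109, 1397 and 2183 CPM with PBS and at 2861, 2013, 3092, 1660 and 1591 CPM with LPS. The groups overlapped widely, and the log2 fold change (log2FC) of LPS against PBS was 0.16 ± 0.267 (SE, adjusted p = 0.671) in wildtype and 0.13 ± 0.251 (adjusted p = 0.720) in KO.

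mt-Cytb ranged from 311 to 641 CPM in wildtype PBS and from 359 to 590 CPM in wildtype LPS. In KO mice its ranges were 368 to 713 CPM with PBS and 349 to 733 CPM with LPS, and its log2FC was 0.10 ± 0.254 in wildtype and -0.01 ± 0.239 in KO. Over the 7 genes the log2FC lay between -0.07 and 0.32 in wildtype and between -0.01 and 0.20 in KO. Single libraries moved these values: without wildtype PBS replicate 2 mt-Nd1 had 0.71 and mt-Co1 0.49 in wildtype, without PBS replicate 1 they had 0.15 and 0.04, and mt-Nd2 in KO had -0.22 without LPS replicate 3 and 0.43 without PBS replicate 5. None of the 7 genes passed the test when any mouse was left out. The 95% intervals were wide: for mt-Nd1, the most changed in wildtype, the interval ran from -0.30 to 0.95. No interval of the 7 genes lay within 0.5 log2 of no change in either genotype, so a change of that size could not be told from none. The libraries with the highest mitochondrial share in the PBS groups, wildtype replicate 2 (0.395%) and KO replicate 1 (0.407%), also had the highest sums of other brain cell markers in their groups. In the LPS groups the highest shares were in wildtype replicate 5 and KO replicate 3, which did not have the highest marker sums.

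The nuclear subunits as a whole moved little after LPS compared with all genes tested. In wildtype 16 of 83 tested rose (19.3%, against 22% of all genes) and 5 fell (6.02%, against 19.7%), and in KO 10 rose (12%, against 24.2%) and 8 fell (9.64%, against 21.9%). Their median log2FC was 0.05 in wildtype and 0.00 in KO, beside -0.06 and -0.01 for all genes. Their median absolute log2FC was 0.206 and 0.184, beside 0.538 and 0.563 for all genes. The 95% interval lay within 0.5 log2 of no change for 30 of 83 (36.1%) in wildtype and 42 of 83 (50.6%) in KO, against 10.9% and 11.4% of all genes. Fold size and interval width also depend on how many counts a gene has. The subunits were not set against genes of like counts, here or for the intervals of the genotype comparisons below. With libraries scaled to total counts alone, which shifted the median of all genes by -0.09 in wildtype and -0.11 in KO, 8 rose and 6 fell in wildtype, and 3 rose and 13 fell in KO. Without the low-count filter 7 rose and 2 fell in wildtype and 4 rose and 5 fell in KO, and with the level of other brain cell markers as a covariate 13 fell in KO.

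Subunits that passed the test in both genotypes went the same way in both. The 10 that rose in both were Ndufa12, Ndufb1, Uqcrc1, Uqcrq, Cox5a, Cox7c, Atp5f1a, Atp5f1b, Atp5mc3 and Atp5pb, and the 5 that fell in both were Ndufa6, Ndufa9, Ndufb11, Cox7a2l and Atp5if1. In wildtype alone, by the same test, Ndufs3, Ndufv2, Uqcrb, Cox5b, Cox6a2 and Atp5mc1 also rose, and in KO alone Ndufb3, Ndufv3 and Sdha also fell. Atp5pb, Ndufs3, Ndufv2, Uqcrb and Cox5b are named here after their values were seen. Passing in one genotype only is not a difference between the genotypes, which was tested separately. The calls in both genotypes were kept under all 20 alternatives in wildtype and all 21 in KO by Atp5f1b, Uqcrq, Cox5a, Cox7a2l and Ndufb11. Atp5pb was not followed under these alternatives.

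**Figure D2:**
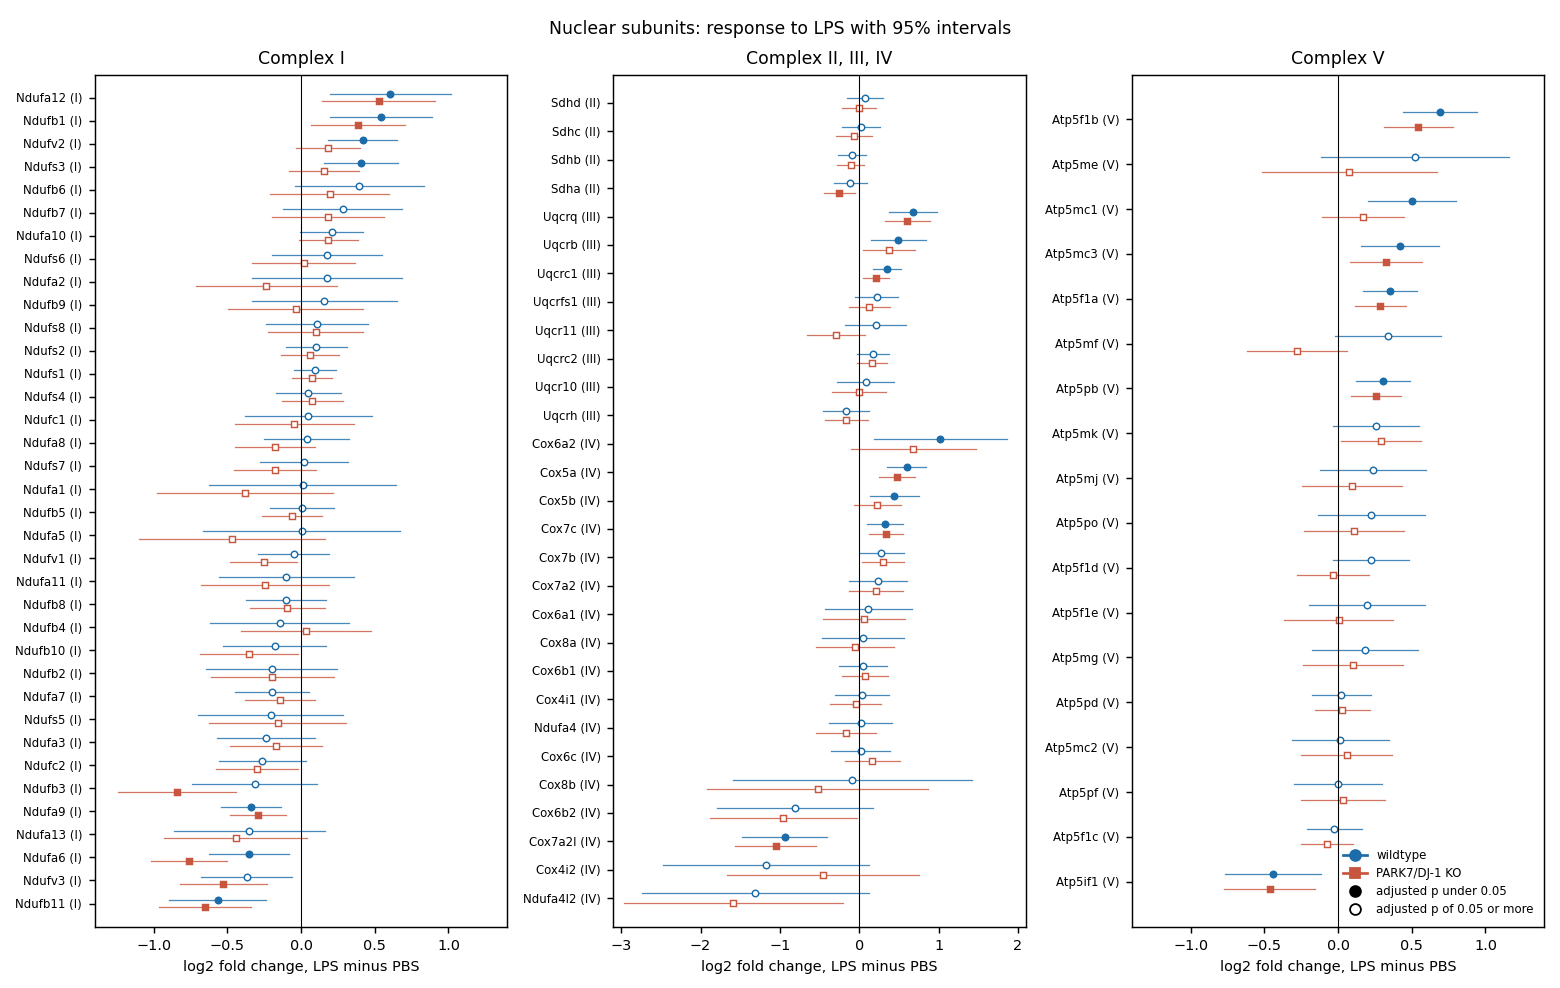
The log2 fold change of LPS against PBS (horizontal axis) with its 95% interval for each of the 83 nuclear subunits tested, grouped by complex, in wildtype (blue circles) and PARK7/DJ-1 KO (red squares). Filled symbols have an adjusted p under 0.05. Most symbols are open and near 0, and the filled ones reach from -1.05 (Cox7a2l in KO) to 1.02 (Cox6a2 in wildtype).

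In complex I, 4 of 36 subunits rose and 3 fell in wildtype, where 22% of all genes rose and 19.7% fell. In KO 2 rose and 5 fell, where 24.2% of all genes rose and 21.9% fell. Ndufs1, the large iron-sulphur subunit of the core, lay at 61.7 to 63.9 CPM in wildtype PBS and at 65.0 to 70.2 CPM in wildtype LPS. Its log2FC was 0.10 ± 0.068 in wildtype and 0.07 ± 0.064 in KO, with intervals from -0.05 to 0.24 and from -0.06 to 0.21. For Ndufv1, which binds NADH and FMN, the log2FC was -0.05 ± 0.115 in wildtype (adjusted p = 0.771) and -0.26 ± 0.109 in KO (adjusted p = 0.0629, past the threshold under 5 of 21 alternatives). Of the other core subunits Ndufs3 and Ndufv2 rose in wildtype, with 0.41 ± 0.120 (adjusted p = 0.0102) and 0.42 ± 0.111 (adjusted p = 0.00497), and in KO they had 0.16 ± 0.113 and 0.18 ± 0.104.

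The remaining called subunits of complex I are accessory, around the core. Ndufa12 (chr10:94034582-94057450 in GRCm39) had 10.1, 20.4, 10.5 and 17.6 CPM in wildtype PBS and 23.6, 19.3, 26.9, 18.5 and 23.3 CPM in wildtype LPS. It had 16.3, 12.98, 17.9, 15.8 and 16.2 CPM in KO PBS and 22.5, 28.6, 18.7, 22.3 and 21.9 CPM in KO LPS. The groups overlapped in wildtype, through PBS replicate 2, and not in KO, and the log2FC was 0.61 ± 0.197 (adjusted p = 0.0184) and 0.53 ± 0.184 (adjusted p = 0.0249). The calls were lost under 3 of 20 and 3 of 21 alternatives, in wildtype without PBS replicate 1 or 3 and in KO without PBS replicate 2 or LPS replicate 2. Ndufb1, a subunit of the membrane arm, rose by 0.54 ± 0.165 log2 in wildtype (adjusted p = 0.0124, lost under 1 of 20 alternatives) and by 0.38 ± 0.153 in KO (adjusted p = 0.0470), and in KO the call was lost under 15 of 21 alternatives.

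Ndufb11, on the X chromosome (chrX:20481563-20484457), fell in both genotypes. It had 19.4, 20.7, 19.1 and 19.9 CPM in wildtype PBS and 10.9, 13.9, 12.4, 16.5 and 13.2 CPM in wildtype LPS. It had 24.3, 24.3, 22.3, 21.95 and 19.7 CPM in KO PBS and 18.2, 12, 16.6, 14.8 and 9.96 CPM in KO LPS. The groups did not overlap in either genotype, and the log2FC was -0.57 ± 0.158 (adjusted p = 0.00676) in wildtype and -0.65 ± 0.149 (adjusted p = 0.00134) in KO. Ndufa9, a subunit at the joint of the matrix and membrane arms, was at 36.4 to 44.9 CPM in wildtype PBS and 31.4 to 33.9 CPM in wildtype LPS, with no overlap. Its log2FC was -0.34 ± 0.097 (adjusted p = 0.00773) in wildtype and -0.29 ± 0.092 (adjusted p = 0.0134) in KO, with the call lost under 1 of 20 and 2 of 21 alternatives.

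Ndufa6, an accessory subunit of the LYR family that binds the acyl carrier protein, had 11.8, 13.2, 12.6 and 13.9 CPM in wildtype PBS and 10.9, 8.48, 11.7, 8.97 and 10.3 CPM in wildtype LPS. In KO mice it had 16.6, 15.8, 16.8, 15.7 and 12.9 CPM with PBS and 8.83, 9.09, 8.32, 10.2 and 9.53 CPM with LPS. Neither pair of groups overlapped, and the log2FC was -0.35 ± 0.130 in wildtype (adjusted p = 0.0354) and -0.76 ± 0.123 in KO (adjusted p = 4.56e-05). The call in wildtype was lost under 10 of 20 alternatives, and that in KO under none of 21. In KO alone Ndufb3 fell by 0.84 log2 (adjusted p = 0.00124) and Ndufv3 fell by 0.53 (adjusted p = 0.00431), both named here after their values were seen.

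The 4 subunits of complex II, which is also the succinate dehydrogenase of the citric acid cycle, did not pass the test in wildtype, and all 4 intervals lay within 0.5 log2 of no change in each genotype. Sdha, the flavoprotein that oxidises succinate, had 132, 136, 125 and 117 CPM in wildtype PBS and 107.9, 125, 127, 116 and 113 CPM in wildtype LPS. In KO mice it had 152, 160, 143, 136 and 132 CPM with PBS and 149, 123, 111, 118 and 107 CPM with LPS, where LPS replicate 1 alone lay among the PBS libraries. Its log2FC was -0.25 ± 0.093 in KO (adjusted p = 0.0326, lost under 10 of 21 alternatives) and -0.11 ± 0.098 in wildtype. Sdhb, the iron-sulphur subunit, had -0.09 ± 0.084 in wildtype and -0.11 ± 0.079 in KO.

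In complex III, 3 of 8 subunits rose in wildtype, 2 rose in KO and none fell. Among all genes 22% rose and 19.7% fell in wildtype, and 24.2% rose and 21.9% fell in KO. Uqcrq (chr11:53318749-53322047), a small subunit bound to cytochrome b, had 16.3, 22.1, 14.4 and 20.9 CPM in wildtype PBS and 28.1, 26.6, 28.6, 32.2 and 31.98 CPM in wildtype LPS. It had 19.2, 20.6, 17.3, 19.5 and 17.9 CPM in KO PBS and 32.9, 28.1, 23.6, 24.3 and 34.8 CPM in KO LPS. All LPS libraries lay above all PBS libraries, and the log2FC was 0.68 ± 0.144 (adjusted p = 0.000784) in wildtype and 0.61 ± 0.134 (adjusted p = 0.00102) in KO. Uqcrc1, a core subunit on the matrix side, had 94.1, 108.3, 92.8 and 99.3 CPM in wildtype PBS and 118, 126, 134, 121 and 131 CPM in wildtype LPS, with no overlap and a log2FC of 0.35 ± 0.084 (adjusted p = 0.00216). In KO its log2FC was 0.21 ± 0.079 (adjusted p = 0.0330), the groups overlapped through PBS replicate 2, and 10 of 21 alternatives ended the call. Uqcrfs1, the Rieske iron-sulphur protein, which hands electrons to cytochrome c1, had 0.22 ± 0.131 in wildtype and 0.12 ± 0.123 in KO and passed in neither.

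In complex IV, 4 of 17 tested subunits rose and 1 fell in wildtype, where 22% of all genes rose and 19.7% fell. In KO 2 rose and 1 fell, where 24.2% of all genes rose and 21.9% fell. Cox5a (chr9:57428456-57440678), a matrix subunit known to bind thyroid hormone metabolites, had 16.8, 19.5, 16.5 and 18.7 CPM in wildtype PBS and 25.2, 25.4, 29.5, 29.9 and 25.2 CPM in wildtype LPS. It had 20.1, 21.8, 20.9, 19.3 and 20.2 CPM in KO PBS and 33.0, 33.3, 26.4, 24.3 and 25.2 CPM in KO LPS. The groups did not overlap in either genotype, with a log2FC of 0.60 ± 0.117 (adjusted p = 0.000381) and 0.48 ± 0.109 (adjusted p = 0.0013). Cox7c rose as well, by 0.33 ± 0.108 log2 (adjusted p = 0.0200) and 0.34 ± 0.102 (adjusted p = 0.00981), with the calls lost under 5 of 20 and 2 of 21 alternatives, the former also without wildtype PBS replicate 1. Of its 75-base words 70.0% also occur elsewhere in the genome.

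Cox7a2l (chr17:83765970-83824759), also known as SCAFI, had the largest drop among the called subunits. It is known as a factor that joins complexes III and IV in supercomplexes, but whether it does so in mice of this strain was not tested. It had 88.4, 74.4, 87.2 and 56.2 CPM in wildtype PBS and 40.4, 42.5, 40.0, 43.1 and 33.4 CPM in wildtype LPS. It had 107, 150, 105, 58.7 and 57.4 CPM in KO PBS and 55.5, 40.0, 66.9, 33.5 and 34.7 CPM in KO LPS. The wildtype groups did not overlap, and in KO LPS replicate 3 lay above PBS replicates 4 and 5. The log2FC was -0.94 ± 0.256 (adjusted p = 0.00574) in wildtype and -1.05 ± 0.244 (adjusted p = 0.00148) in KO. Of its words 35.0% occur elsewhere in the genome. Its relative Cox7a2, the ordinary subunit in the same position of complex IV, had 0.24 ± 0.176 in wildtype and 0.21 ± 0.165 in KO and passed in neither.

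Among the tissue-type isoforms of complex IV only the weakly expressed Cox6a2 passed the test, in wildtype. It had 0.303 to 1.25 CPM in wildtype PBS and 1.30 to 2.90 CPM in wildtype LPS (log2FC 1.02 ± 0.399, adjusted p = 0.0468). That call was lost under 13 of 19 alternatives. Ndufa4l2, the relative of Ndufa4 known from hypoxic cells, had 1.51 to 4.79 CPM in wildtype PBS and 0.298 to 2.24 CPM in wildtype LPS, with a log2FC of -1.31 ± 0.682 (adjusted p = 0.137, past the threshold under 1 of 19 alternatives, the marker covariate), and -1.59 ± 0.656 in KO (adjusted p = 0.0556, past the threshold under 6 of 20 alternatives). Cox6b2, the testis form of Cox6b1, had -0.81 ± 0.470 and -0.96 ± 0.444 (past the threshold in KO under 2 of 20 alternatives), while Cox6b1 had 0.05 ± 0.146 and 0.07 ± 0.137. Cox7b had 0.28 ± 0.135 and 0.30 ± 0.127 and Cox8b had -0.09 ± 0.718 and -0.52 ± 0.664. None of these passed edgeR's test, but Cox7b in KO passed under 6 of 21 alternatives, DESeq2 among them, and in wildtype under 1 of 20. Cox4i1, the regulatory subunit found in most tissues, had 0.03 ± 0.163 in wildtype and -0.04 ± 0.153 in KO. Cox6a1 and Cox8a were each highest, within all 4 groups, in the library with the highest sum of other brain cell markers, at 42.9 to 64.9 CPM and 76.3 to 104 CPM. Among nuclear subunits 4 of 83 (4.82%) had this order, against 7.03% of all genes tested, the other two being Ndufa8 and Ndufa4l2.

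In complex V, 5 of 18 tested subunits rose and 1 fell in wildtype, where 22% of all genes rose and 19.7% fell. In KO 4 rose and 1 fell, where 24.2% of all genes rose and 21.9% fell. Atp5f1b (chr10:127919132-127926261) had 305, 422, 294 and 342 CPM in wildtype PBS and 485, 553, 590, 571 and 548 CPM in wildtype LPS. It had 384, 392, 386, 380 and 351 CPM in KO PBS and 658, 603, 458, 526 and 518 CPM in KO LPS. All LPS libraries lay above all PBS libraries, with a log2FC of 0.69 ± 0.120 (adjusted p = 0.000118) in wildtype and 0.55 ± 0.112 (adjusted p = 0.000506) in KO. Its partner in the catalytic ring, Atp5f1a, rose by 0.35 ± 0.088 log2 (adjusted p = 0.0032) and by 0.29 ± 0.083 (adjusted p = 0.00796), again with no overlap: 288 to 348 against 355 to 415 CPM in wildtype, and 322 to 376 against 388 to 456 CPM in KO. These calls were lost under 1 of 20 and 2 of 21 alternatives. Atp5f1c, the central stalk that turns in this ring, had -0.03 ± 0.0891 (interval -0.21 to 0.16) and -0.08 ± 0.084 (interval -0.25 to 0.10).

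The c subunit, of which the rotating ring in the membrane is built, comes from 3 genes for the same mature protein. Atp5mc3 rose by 0.42 ± 0.126 log2 in wildtype (adjusted p = 0.0109, lost under 1 of 20 alternatives) and by 0.32 ± 0.118 in KO (adjusted p = 0.0303, lost under 9 of 21 alternatives). Atp5mc1 rose by 0.50 ± 0.143 in wildtype (adjusted p = 0.00812, lost under 1 of 20 alternatives) and had 0.17 ± 0.134 in KO. Atp5mc2 had 0.02 ± 0.158 and 0.06 ± 0.148. Of the words of Atp5mc1 and Atp5mc2, 76.4% and 88.0% occur elsewhere in the genome, against 0% for Atp5mc3, so the values of Atp5mc1 and Atp5mc2 are uncertain.

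Atp5if1, the peptide that inhibits the ATP synthase when it runs backwards, was the only subunit gene of complex V that fell. It had 12.6, 13.9, 13.01 and 11.1 CPM in wildtype PBS and 11.3, 8.29, 8.37, 10.1 and 8.44 CPM in wildtype LPS. It had 14.4, 12.52, 11.5, 11.1 and 11.2 CPM in KO PBS and 9.11, 9.55, 8.55, 10.4 and 6.35 CPM in KO LPS. The groups overlapped slightly in wildtype, through LPS replicate 1 and PBS replicate 4, and not in KO. The log2FC was -0.44 ± 0.155 (adjusted p = 0.0285, lost under 9 of 20 alternatives) and -0.46 ± 0.147 (adjusted p = 0.0146, lost under 3 of 21).

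**Figure D3:**
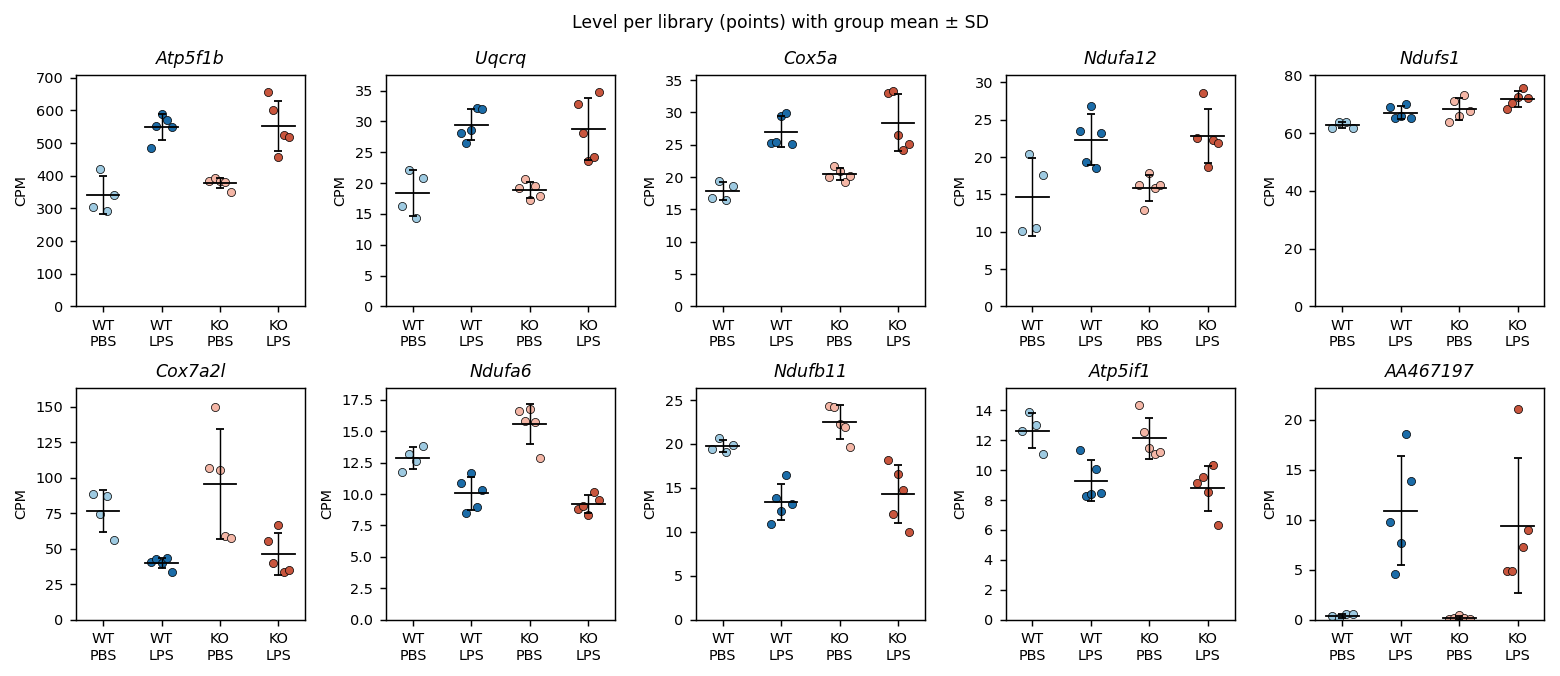
CPM per library (points) with group mean and SD for 9 subunits and for AA467197, in wildtype (blue) and PARK7/DJ-1 KO (red) with PBS or LPS, each panel with its own axis from 0. Atp5f1b, Uqcrq and Cox5a are higher in every LPS library than in every PBS library of the same genotype, Ndufa6 and Ndufb11 are lower, and Ndufs1 keeps to 61.7 to 75.7 CPM throughout.

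Summed over the subunits of a complex, the levels differed most for the ATP synthase, whose sum is carried by Atp5f1a and Atp5f1b. Its nuclear subunits summed to 942 to 1211 CPM in wildtype PBS and 1269 to 1467 CPM in wildtype LPS, and to 1077 to 1210 CPM in KO PBS and 1265 to 1620 CPM in KO LPS. These groups did not overlap. Complex I summed to 601 to 699 CPM and 638 to 675 CPM in wildtype, and to 636 to 723 CPM and 611 to 708 CPM in KO, with wide overlap. Complex II (257 to 273 CPM and 244 to 275 CPM in wildtype) and complex IV (377 to 544 CPM and 382 to 471 CPM in wildtype) overlapped too. Complex III lay at 274 to 316 CPM with PBS and 313 to 380 CPM with LPS in wildtype, with a small overlap.

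**Figure D4:**
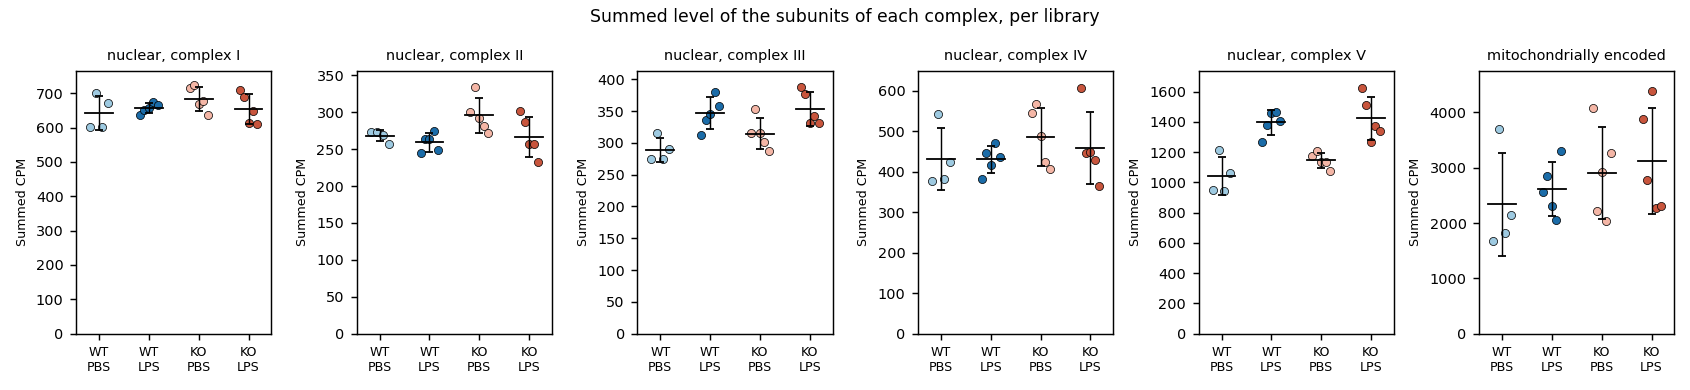
Summed CPM of the nuclear subunits of each complex and of the mitochondrially encoded subunits, per library (points), with group mean and SD. For complex V every LPS library (1265 CPM or more) lies above every PBS library (1211 CPM or less), while for complexes I, II and IV and the mitochondrial genes the groups overlap.

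Whether KO and wildtype mice responded differently to LPS was asked with the interaction of genotype and treatment. None of the 90 subunits passed at an adjusted p of 0.05, and 0.0% of all 18739 genes did. At an unadjusted p under 0.05 there were 2, against 0.961% of all genes (180 genes): Atp5mf, a membrane subunit of the ATP synthase (-0.62 ± 0.235), and Ndufa6 (-0.41 ± 0.179). Atp5mf stood at 4.53 to 7.39 CPM with PBS and 6.96 to 9.09 CPM with LPS in wildtype, and at 6.71 to 8.43 CPM and 5.15 to 8.08 CPM in KO. DESeq2 also gave no interaction at an adjusted p of 0.05. The 95% interval of the interaction lay within 0.5 log2 of no difference for 33 of the 83 nuclear subunits, against 19.1% of all genes.

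The same subunits were then compared between PARK7/DJ-1 KO and wildtype mice within each treatment, with the study's rule of an unadjusted p under 0.05 and at least 0.5 log2. The rule was applied here to the edgeR fit, where the study used DESeq2, so the genes called are not those of the study. None of the 90 passed after LPS, where 0.544% of all genes were higher and 0.763% lower in KO, and none passed at baseline, where 0.224% were higher and 0.576% lower. Leaving fold size aside, Uqcrh after LPS and Uqcrh, Atp5mc1, Ndufb1 and Ndufa6 at baseline had an unadjusted p under 0.05 (Uqcrh is named after its values were seen), against 2.57% and 1.04% of all genes. All had an adjusted p of 1. Uqcrh, the hinge protein of complex III, had 17.8, 23.8, 18.2 and 19.5 CPM in wildtype PBS and 26.1, 27.3, 27.4, 22.99 and 22.5 CPM in KO PBS. After LPS it had 14.9, 14.9, 16.8, 23.01 and 18.8 CPM in wildtype and 23.8, 21.8, 23.3, 24.6 and 19.3 CPM in KO, and the groups overlapped in both. Its log2FC was 0.35 ± 0.131 after LPS (interval 0.08 to 0.63) and 0.35 ± 0.139 at baseline (interval 0.06 to 0.64).

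At baseline 71 of the 83 nuclear subunits had a positive log2FC in KO (85.5%, against 50.7% of all genes), with a median of 0.11, beside a median of 0.00 for all genes. After LPS 45 of 83 were positive (54.2%, against 53.3% of all genes), with a median of 0.01 beside 0.02 for all genes. The subunits share the same 9 libraries at baseline and 10 after LPS and are not independent. The S numbers in the sample labels ran largely by genotype, and their part in these values was not tested. The interval lay within 0.5 log2 of no difference for 45 of 83 at baseline and 54 of 83 after LPS, against 36.2% and 35.0% of all genes. For complex II all 4 intervals were within 0.5 in both treatments, with medians of 0.12 at baseline and 0.03 after LPS.

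The 7 measured mitochondrial genes were all higher in KO in both treatments, with a median log2FC of 0.29 in each, but none differed by the test: the smallest p was 0.177 at baseline and 0.145 after LPS. The share of counts in rRNA genes, whose ranges overlapped between the genotypes in both treatments and were not tested, was 0.0254 to 0.154% in wildtype and 0.0989 to 0.342% in KO at baseline, and 0.0294 to 0.0562% in wildtype and 0.0498 to 0.907% in KO after LPS. With mitochondrial and ribosomal RNA genes left out of the library totals, 0 subunits passed the study's rule in either treatment, as with them. Single libraries moved these results. Without wildtype PBS replicate 2, which had the most mitochondrial counts in its group, mt-Nd1, mt-Nd4, mt-Co1, mt-Cytb, Ndufb6 and Ndufb9 passed the study's rule at baseline, with a log2FC from 0.53 to 0.82 and an adjusted p of 1. Without wildtype PBS replicate 4 Ndufb6 passed (0.57), and without KO LPS replicate 5 mt-Nd4 passed after LPS (0.65). Ndufb6 and Ndufb9 were named after these values were seen.

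**Figure D5:**
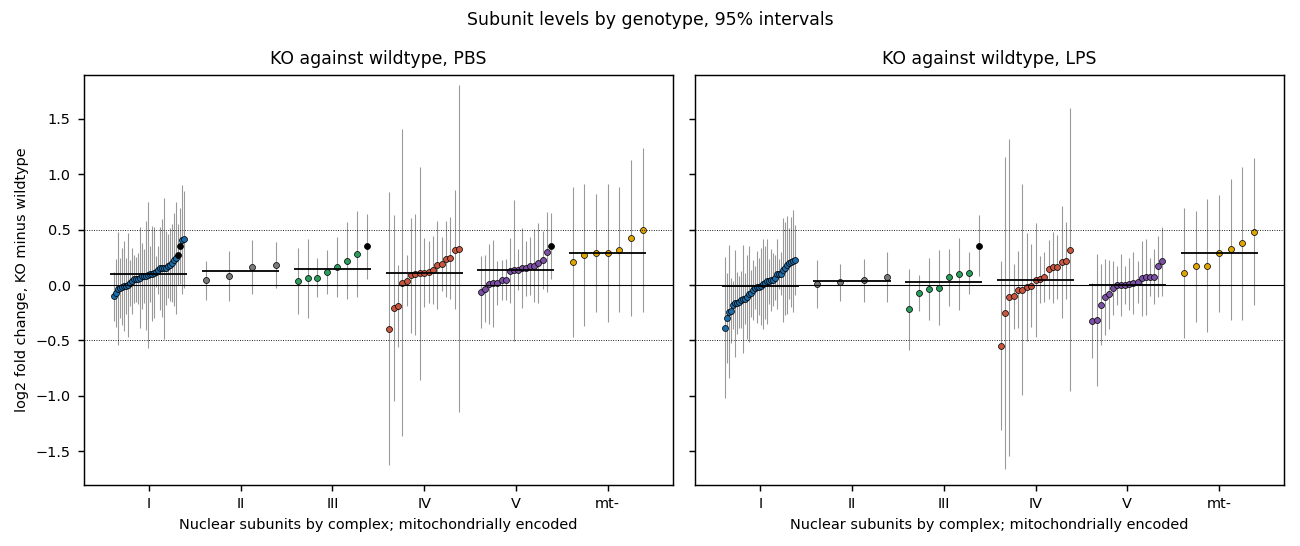
The log2 fold change of KO against wildtype (vertical axis) with its 95% interval for each of the 90 subunits tested, at PBS (left) and after LPS (right), by complex. Horizontal bars are medians, dotted lines 0.5 log2, and black points have an unadjusted p under 0.05 (4 at PBS, 1 after LPS). Point estimates lie within 0.55 log2 of 0, those of the mitochondrial genes all above 0.

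Genes that work beside the subunits were read in lists. In the list of electron carriers and subunits that the rule's names miss, 4 of 7 tested rose and 2 fell in each genotype (57.1% and 28.6%, against 22% and 19.7% of all genes in wildtype and 24.2% and 21.9% in KO). AA467197, also known as NMES1 or C15orf48, encodes a protein that can take the place of the complex IV subunit Ndufa4. It had 1 to 10 counts in each PBS library and 70 to 352 counts in each LPS library, and its log2FC was 4.73 ± 0.633 (adjusted p = 6.7e-06) in wildtype and 5.52 ± 0.613 (adjusted p = 5.73e-07) in KO. With so few counts at PBS the size of this change is uncertain: in KO it was 6.25 without PBS replicate 3 and 4.99 without LPS replicate 3. Ndufa4 itself lay at 11.3 to 22 CPM with PBS and 13.6 to 21 CPM with LPS in wildtype, with a log2FC of 0.02 ± 0.189, and -0.17 ± 0.178 in KO.

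Cyc1, the cytochrome c1 of complex III, had 34.3, 35.8, 30.02 and 34.6 CPM in wildtype PBS and 52.5, 54.7, 57.5, 53.4 and 55.8 CPM in wildtype LPS. It rose without overlap in both genotypes, by 0.70 ± 0.086 log2 (adjusted p = 2.57e-06) and 0.55 ± 0.081 (adjusted p = 1.52e-05). Cytochrome c itself, Cycs, rose by 0.92 ± 0.194 and 1.08 ± 0.181. Higd2a, a factor of supercomplex and complex IV assembly, went from 26.6 to 34.2 CPM down to 11.7 to 14.01 CPM in wildtype, and fell by 1.30 log2 in wildtype and by 1.43 in KO. Ndufab1, the acyl carrier protein in complex I, had 0.22 ± 0.127 and 0.26 ± 0.119 and did not pass in either. In KO it was past the threshold under 1 of 21 alternatives, without LPS replicate 3.

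Of the assembly factors 15 of 55 tested rose and 3 fell in wildtype, and 17 rose and 8 fell in KO. The shares that rose were 27.3% and 30.9%, near the 22% and 24.2% of all genes, and the shares that fell were 5.45% and 14.5%, against 19.7% and 21.9%. Those with the smallest p in wildtype were Cox10, which makes heme O for complex IV (1.16 ± 0.119 in wildtype and 1.10 ± 0.110 in KO), the complex I factor Ndufaf4 (1.43 ± 0.167 and 1.57 ± 0.155) and the copper chaperone Sco1 (0.89 ± 0.123 and 1.04 ± 0.115). Of the genes for the expression of mitochondrial DNA 15 of 27 rose and none fell in wildtype, and 14 rose and none fell in KO (55.6% and 51.9% rose, against 22% and 24.2% of all genes, where 19.7% and 21.9% fell). Among them were the RNA degradation pair Pnpt1 (1.41 ± 0.120 and 1.63 ± 0.112) and Supv3l1 (1.16 ± 0.152 and 1.20 ± 0.141), the RNA-binding Tbrg4 (1.77 ± 0.158 and 1.86 ± 0.146), the packaging factor Tfam (0.55 ± 0.114 and 0.74 ± 0.107) and the RNA polymerase Polrmt (0.55 ± 0.129 and 0.35 ± 0.121, the latter call lost under 4 of 21 alternatives). The 7 measured mitochondrial transcripts, given above, had no called change in the same libraries.

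Of 11 regulators of respiratory genes 6 rose and 1 fell in each genotype (54.5% and 9.09%, against 22% and 19.7% of all genes in wildtype and 24.2% and 21.9% in KO). Pprc1, a coactivator of the PGC-1 family, rose by 1.56 ± 0.138 and 1.75 ± 0.128 log2, Ppargc1b by 1.13 ± 0.267 and 1.17 ± 0.249, Myc by 1.77 ± 0.219 and 1.79 ± 0.202, and Hif1a, which represses respiration in low oxygen, by 1.73 ± 0.208 and 1.79 ± 0.193. Ppargc1a had -0.74 ± 0.546 and -0.71 ± 0.514 and did not pass, with -0.21 in wildtype without PBS replicate 2 and -0.44 in KO without LPS replicate 5. Of 23 genes of pyruvate oxidation and the citric acid cycle 11 rose and 5 fell in each genotype (47.8% and 21.7%), the share that fell being near that of all genes (19.7% and 21.9%) and the share that rose set against 22% and 24.2%. The subunits of isocitrate dehydrogenase went apart: Idh3a, the catalytic one, rose by 0.96 ± 0.131 and 0.77 ± 0.121 log2, and Idh3g fell by 0.68 in wildtype and by 0.75 in KO. Malate dehydrogenase Mdh2 rose by 0.79 ± 0.090 and 0.68 ± 0.084.

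The promoters of the nuclear subunits were read for the motifs of 3 factors known to drive respiratory genes, in RefSeq sequence of GRCm38.p6, a different build from that of the counts, from 250 bases before to 50 bases after the start of the gene. Of 68 nuclear subunit genes with such a sequence, 34 held at least 1 of the 3 motifs, searched on both strands, where the share of all 27025 genes with a promoter was 15.1%. The NRF1 core was in 25.0% (5.19% of all genes), the ETS motif CCGGAAG, bound by GABPA, in 23.5% (9.93%), and the YY1 motif AAGATGGCG in 10.3% (1.64%). Among the 8 genes with a promoter that rose in both genotypes, 2 held the NRF1 core and none the others, and among the 4 that fell in both, 1 held the NRF1 core and 1 the YY1 motif. Nrf1 and Gabpa RNA moved in opposite directions after LPS, Nrf1 with a log2FC of 0.42 ± 0.115 and 0.44 ± 0.107 and Gabpa with -0.36 ± 0.107 and -0.33 ± 0.101. Both genes passed in both genotypes and are named after their values were seen.

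The promoters of 2 subunits that rose and 2 that fell in both genotypes are printed on the strand of the gene, with motif letters in capitals. They are chosen examples, 1 with and 1 without a motif for each direction, and whether direction goes with the motifs was not tested. Uqcrc1 has 2 NRF1 cores, both after its start (chr9:108936398-108936697, plus strand), Ndufa9 has 1 YY1 motif (chr6:126849095-126849394, minus strand), and Atp5f1b (chr10:128083057-128083356, plus strand) and Cox7a2l (chr17:83514284-83514583, minus strand) have none of the 3 in this window.
Uqcrc1: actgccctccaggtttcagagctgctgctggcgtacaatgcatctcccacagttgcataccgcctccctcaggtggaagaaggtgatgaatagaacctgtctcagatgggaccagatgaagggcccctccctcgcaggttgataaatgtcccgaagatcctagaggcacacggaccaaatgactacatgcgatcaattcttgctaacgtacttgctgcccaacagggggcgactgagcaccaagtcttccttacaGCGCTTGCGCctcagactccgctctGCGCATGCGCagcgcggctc
Atp5f1b: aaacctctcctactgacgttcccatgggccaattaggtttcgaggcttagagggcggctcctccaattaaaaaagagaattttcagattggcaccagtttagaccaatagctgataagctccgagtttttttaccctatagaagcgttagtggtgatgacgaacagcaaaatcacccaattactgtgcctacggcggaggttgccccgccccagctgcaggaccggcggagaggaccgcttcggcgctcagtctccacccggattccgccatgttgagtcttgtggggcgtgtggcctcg
Ndufa9: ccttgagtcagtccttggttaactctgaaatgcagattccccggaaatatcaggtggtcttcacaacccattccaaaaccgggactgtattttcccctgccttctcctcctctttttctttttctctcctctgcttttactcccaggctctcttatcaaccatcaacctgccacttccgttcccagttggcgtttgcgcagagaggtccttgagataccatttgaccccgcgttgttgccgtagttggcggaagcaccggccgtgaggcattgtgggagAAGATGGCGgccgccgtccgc
Cox7a2l: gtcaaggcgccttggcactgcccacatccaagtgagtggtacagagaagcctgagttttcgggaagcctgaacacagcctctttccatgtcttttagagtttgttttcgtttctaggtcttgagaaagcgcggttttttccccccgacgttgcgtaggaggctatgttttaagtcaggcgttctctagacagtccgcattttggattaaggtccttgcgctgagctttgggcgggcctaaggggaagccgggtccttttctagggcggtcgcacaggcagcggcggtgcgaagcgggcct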

How the data were processed

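CD11b+ cells of 19 mice were profiled by stranded total RNA sequencing after rRNA depletion, with 75 base paired reads. The authors trimmed reads with Cutadapt, aligned them with STAR 2.7.9a to GRCm39 and counted them per gene of Ensembl 108, and the deposited table holds raw counts. Strand setting and treatment of reads that fit several places are not given in the sources used here. Groups came from the sample labels. Columns without a sample numbered 0.

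Genes were named and typed with GENCODE M39, which matched 56236 of 56980. Low counts were removed by edgeR's filterByExpr at 10 counts in a library and 15 in total, which left 18739 genes, and libraries were scaled by TMM. The 4 groups were fitted together with edgeR 4.0.16 (quasi-likelihood test, R 4.3.3, limma 3.58.1), and p-values were adjusted by Benjamini-Hochberg over all genes tested. LPS was compared with PBS at an adjusted p of 0.05, and KO with wildtype also by the study's rule of an unadjusted p of 0.05 and 0.5 log2. Alternatives were DESeq2 1.42.0, other scalings and filters, a replicate block and leaving out each mouse. CPM used TMM-scaled totals, log2 CPM a prior count of 2. The steps were tested on simulated data with 200 changed genes. Intervals are 95%, and the floor of 3 counts covers counting error only. Each library is labelled as a separate mouse, and replicates of a group differed by more than counting noise.

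The members and gene lists were chosen with earlier results of these data known. Named with values were, by rule, the mitochondrial genes, for each complex and direction the 2 subunits with the smallest p in wildtype among those called in both genotypes, fixed core subunits and isoform sets, subunits with an unadjusted p under 0.05 for the interaction, the 3 genes of each pathway list with the smallest p in wildtype, and fixed pathway genes. Others are said to be named after their values were seen. Words of 75 bases were compared within the GRCm39 genome.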

Additional observations from a re-analysis of the deposited data

Results flagged for a closer look

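In groups of 4 or 5 mice, a library was set against the others by its gap to the nearest divided by the range of the group (Dixon's ratio). Of 248 groups checked 9 passed the 95% critical value, where chance gives about 1 in 20. Ndufb1 was low in KO LPS replicate 5, at 3.43 log2 CPM against 3.83 to 3.96 in the other mice of its group (ratio 0.742). Atp5f1b was low in KO PBS replicate 5, at 8.46 log2 CPM against 8.57 to 8.62 in the other mice of its group (ratio 0.718). Uqcrfs1 was high in wildtype PBS replicate 2, at 5.37 log2 CPM against 5.13 to 5.16 in the other mice of its group (ratio 0.879). Ndufa6 was low in KO PBS replicate 5, at 3.70 log2 CPM against 3.98 to 4.08 in the other mice of its group (ratio 0.756). Ndufaf4 was low in wildtype PBS replicate 1, at 3.05 log2 CPM against 3.46 to 3.51 in the other mice of its group (ratio 0.905). Pnpt1 was low in KO LPS replicate 1, at 5.59 log2 CPM against 5.98 to 6.12 in the other mice of its group (ratio 0.741). Tbrg4 was low in wildtype LPS replicate 2, at 6.32 log2 CPM against 6.65 to 6.78 in the other mice of its group (ratio 0.733). Ndufab1 was high in wildtype LPS replicate 3, at 4.79 log2 CPM against 4.49 to 4.56 in the other mice of its group (ratio 0.771). Ppargc1a was low in KO LPS replicate 5, at 0.175 log2 CPM against 2.57 to 3.40 in the other mice of its group (ratio 0.743).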

How the results depend on the processing

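Among the nuclear subunits followed gene by gene under the alternatives, no call changed direction. The called subunits Atp5pb, Ndufs3, Ndufv2, Uqcrb, Cox5b, Ndufb3 and Ndufv3 were not followed in this way. The 16 higher subunits in wildtype became 8 with total counts in place of TMM, 7 without the low-count filter and 7 with the fold threshold, and lay between 12 and 16 when a mouse was left out. The 5 lower ones in wildtype became 2 without the filter, 2 with the fold threshold, 3 with the replicate block and 3 without the top marker libraries (3 to 5 when a mouse was left out, 3 without wildtype LPS replicate 2, LPS replicate 5 or PBS replicate 2). In KO the 10 higher became 3 with total counts, 4 without the filter and 3 with the fold threshold (7 to 12 when a mouse was left out). The 8 lower became 13 with total counts, 13 with the marker covariate, 5 without the filter, 5 with only the compared groups and 5 with the fold threshold (7 to 12 when a mouse was left out). Causes were not tested. With the replicate block 15 rose and 3 fell in wildtype and 9 rose and 9 fell in KO, and the numbers were not taken as pairs, since not every pair correlated above 0.1: for LPS against PBS the correlations of same-numbered mice ran from -0.0418 to 0.576 in wildtype and from 0.0265 to 0.544 in KO, and for KO against wildtype from -0.573 to 0.3. KO against wildtype gave 0 subunits by the study's rule, with 0 to 6 higher at PBS and 0 to 1 higher after LPS when a mouse was left out. The fit without the top marker libraries was chosen after seeing the data. The interaction needs all groups and has no fit on the compared groups alone. Low counts limit the precision of subunits such as Cox6a2, Cox4i2, Cox8b and Ndufa4l2.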
